A study of Mus musculus with 10 samples.

Results

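The 10 genes described here belong to the circadian clock and its direct output, and were measured in gastrocnemius muscle, the large calf muscle, of mdx and control mice. The probe sets were those that the annotation of the array assigned to 1 gene and to Dbp, Tef, Nr1d1, Nr1d2, Per1, Per2, Arntl, Clock, Cry1 or Cry2. All 10 genes had a probe set, and 12 of the 12422 probe sets of the array, which named 8251 genes, were theirs. The mdx group consisted of 5 arrays from male mdx mice aged 16 weeks, a strain whose dystrophin gene carries a premature stop and whose muscle degenerates and regenerates. The control group consisted of 5 arrays from normal male mice of the same age. The labels do not say whether each array came from its own animal, so a p-value here reflects how much the arrays of a group differed, part of which may be technical. They also do not give the genetic background, the time of day of collection, feeding or lighting. A difference between the groups in any of these cannot be told apart from genotype. The genes were chosen by their mdx against control values on these arrays, so that contrast is given for them as a description without a test. The further gene lists below were also chosen with earlier results of these data known. Their counts and p-values describe these arrays and are not independent evidence.

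The clock of a mammalian cell is a loop of transcription in which CLOCK and ARNTL (also called BMAL1) bind E-box sequences and switch on the Per and Cry genes, whose proteins then inhibit that pair. Another loop runs through Nr1d1 and Nr1d2, which encode the REV-ERB repressors and act on Arntl through sequences called ROREs. Dbp and Tef encode related transcription factors that carry the rhythm to other genes through D-box sequences. In mouse peripheral tissues, skeletal muscle included, Arntl transcripts are known to peak around the change from night to day, while Nr1d1, Dbp, Tef and the Per genes peak in sequence later in the light phase and around dusk. Arntl and Clock were therefore taken as the morning arm, and Dbp, Tef, Nr1d1, Nr1d2, Per1 and Per2 as the evening arm. Cry1 and Cry2 were left in neither.

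The sequences below show where these regulatory motifs lie at the starts of the genes whose values are compared. RefSeq promoter windows of build GRCm38.p6, running from 250 bases before to 50 bases after an annotated start, were found for 9 of the 10 genes, 14 windows in all. The motif is in capitals and the letters are those of the gene's own strand.
Tef E-box, chr15:81802526-81802571, plus strand: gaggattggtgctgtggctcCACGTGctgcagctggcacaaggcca
Tef E-box of the other start, chr15:81811256-81811301, plus strand: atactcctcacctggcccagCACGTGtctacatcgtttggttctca
Per1 E-box, chr11:69098763-69098808, plus strand: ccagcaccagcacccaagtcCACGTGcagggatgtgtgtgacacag
Per1 D-box-like sequence, chr11:69098905-69098948, plus strand: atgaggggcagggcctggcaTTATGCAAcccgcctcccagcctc
Cry1 E-box, chr10:85185089-85185134, minus strand: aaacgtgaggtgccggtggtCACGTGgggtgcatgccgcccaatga
Nr1d1 E-box-like sequence, chr11:98775380-98775425, minus strand: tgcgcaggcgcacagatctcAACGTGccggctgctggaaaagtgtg
Arntl RORE, chr7:113207530-113207558, plus strand: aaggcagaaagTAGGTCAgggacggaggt

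The E-box letters CACGTG, which read the same on both strands, stood in 4 of the 14 windows, of Tef, Per1 and Cry1, and in 7.15% of all 32851 windows. They began 127 and 138 bases before the starts of Tef, 166 before that of Per1 and 60 before that of Cry1. The related letters CACGTT, on either strand, stood in windows of Nr1d1, Cry1 and Cry2 and in 4.68% of all windows. The D-box TTATGTAA stood in 0 of the 14 windows and 0.938% of all, and its variant TTATGCAA in 1 window of Per1, 24 bases before the start, and 0.743% of all. The RORE core TAGGTCA stood in 1 window of Arntl, at base 31 of the transcript, and in 2.61% of all. Another core, TGGGTCA, stood in 0 of the 14 windows and in 3.98% of all windows. These matches describe letters in short windows and say nothing of binding.

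Across the whole table, the arrays appeared to have been scaled to a common level before deposit. The mean after trimming 2% from each end was 723.1 on mdx replicate 1, and 800.7 to 800.9 on the other arrays. The intensities are therefore relative to the other genes of an array. Of 7612 probe sets bright enough to be tested, 33.1% were called between the groups at an adjusted p below 0.05 by limma, 17.5% lower and 15.6% higher in mdx. The noise level, estimated from the values below 0, was an intensity of 156.8. The tissue label was borne out by myofibre markers, of which 12 of 12 were tested, 9 lower and 0 higher in mdx with a summed intensity of 193029 to 279576 in mdx and 253540 to 409725 in control. Of 13 macrophage markers 13 were higher, with a sum of 71687 to 96159 in mdx and 4853 to 9252 in control, and Lgals3, Adgre1 and Cd53 stayed under the noise level in every control sample. Lgals3 and Cd53 passed the filter on low values through the mdx arrays alone. Of 8 fibroblast markers 6 were higher and 2 lower, with a sum of 82672 to 95930 in mdx and 41711 to 54766 in control. In whole muscle, fewer cells of a type and less RNA per cell cannot be told apart, and the part of this change in cell content in the values of the clock genes was not tested. The ratio of 3' to 5' actin probe sets, a measure of RNA quality, was 0.952 to 1.08 in mdx and 1.07 to 1.16 in control. These ranges overlapped only in that mdx replicate 4, at 1.081, lay above control replicate 2, at 1.068. The same ratio for Gapdh overlapped more widely, at 0.690 to 0.792 in mdx and 0.672 to 0.823 in control. The part of RNA quality was not tested either.

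With the deposited scaling, Dbp, Nr1d1, Nr1d2 and Tef of the evening arm were lower on every mdx array than on any control array, while Arntl and Clock of the morning arm overlapped between the groups; scaling to the hybridization controls, described below, turned the sign for Nr1d2 and Tef. Of the 12 probe sets, 9 passed the filter on low values, 1 for each gene except Per2. Of these 9, 5 were called lower in mdx (Dbp, Tef, Nr1d1, Nr1d2 and Cry1), against 17.5% of all tested probe sets, and 0 higher, with 0 higher also at an unadjusted p below 0.05 by limma. The groups did not overlap for 4 of the 9, all lower in mdx, against 12.7% of all tested probe sets that did so and were lower and 25.1% in either direction. The median log2 difference of the 9 was -0.44, beside -0.05 for all tested probe sets. Since this contrast was in view when the genes were listed, nothing is read from these counts.

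**Figure D1:**
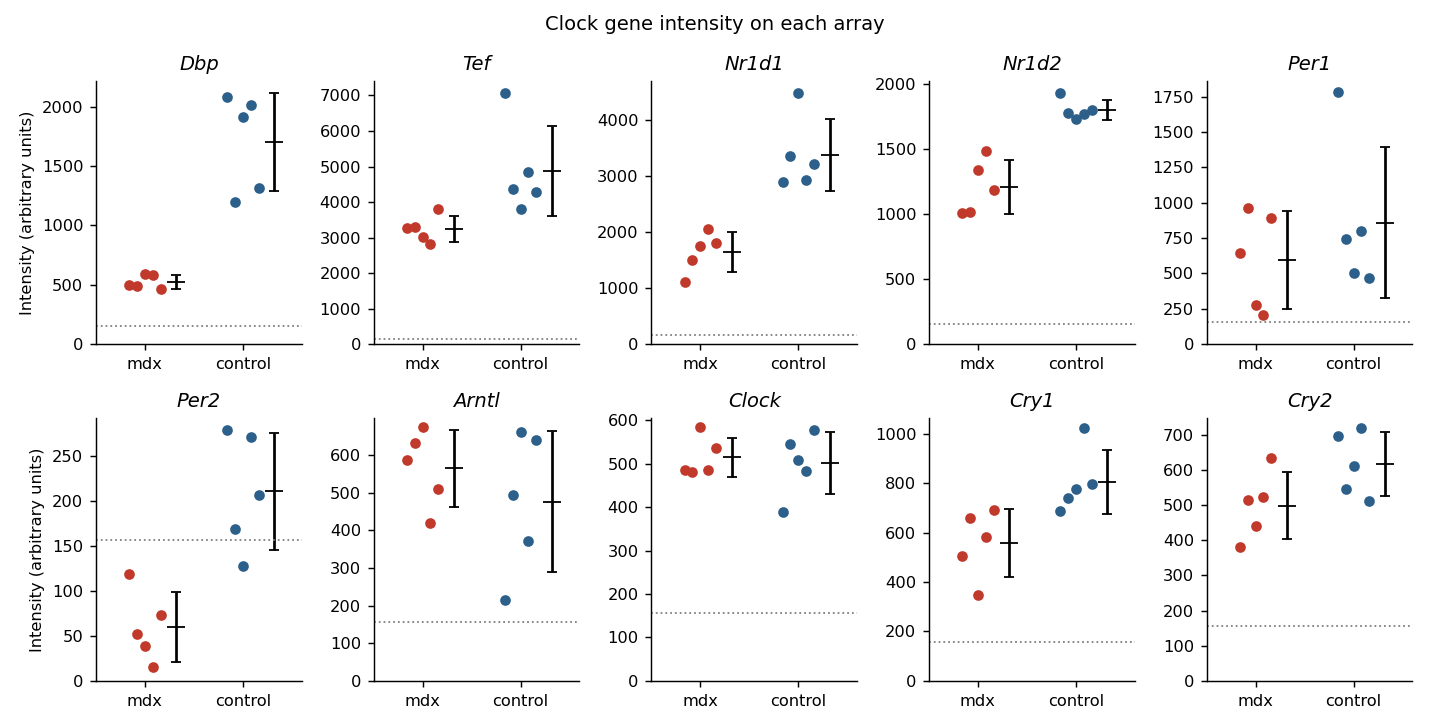
Intensity of the brightest probe set of each clock gene on each array, in arbitrary units on a linear axis, with mdx at the left and control at the right of each panel. Points are the 5 arrays of a group, bars the mean and SD, and the dotted line the noise level of 156.8. Dbp ran from 468 to 595 in mdx and from 1201 to 2080.4 in control, whereas Arntl ran from 418 to 673 in mdx and from 216 to 662 in control.

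Among the 9 tested probe sets, that of Dbp had the largest difference. Dbp, on chromosome 7, encodes the PAR bZIP factor that binds D-boxes, and its transcript is one of the most strongly cycling in many tissues. Its intensities were 502, 487, 595, 579.9 and 468 in mdx, against 2080.4, 1201, 1912, 2014 and 1314 in control. Every mdx array lay below every control array by a wide margin, and the mdx arrays lay close together. The means were 526 ± 57.4 in mdx and 1704 ± 414 in control (SD, n = 5 each). The log2 difference, mdx minus control, was -1.42 (SE 0.15), and 0.644% of all tested probe sets had a more negative one. Leaving out any single array gave -1.52 to -1.34. On the log2 scale the SD between arrays was 0.12 in mdx and 0.34 in control.

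Tef, on chromosome 15, encodes another PAR bZIP factor. The arrays gave intensities of 3273, 3287.5, 3014, 2819 and 3813 in mdx, against 7060.4, 4359, 3818, 4840.4 and 4277 in control. The groups did not overlap, but the highest mdx and the lowest control array nearly met, at 3813 and 3818, and control replicate 1 was the highest. Tef thus differed by -0.54 on the log2 scale (SE 0.15) with the deposited scaling and 0.07 under scaling to the hybridization controls described below.

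Of the REV-ERB genes, Nr1d1 was the lower relative to control. Nr1d1, on chromosome 11, encodes REV-ERB alpha, the main repressor of Arntl. Its intensities were 1108, 1499, 1755, 2061 and 1808 in mdx, against 2892, 3360.1, 4483.5, 2939.5 and 3224 in control. No array of one group reached the other, and the means were 1646 ± 361 in mdx and 3379.8 ± 647 in control (SD, n = 5 each). The log2 difference was -0.98 (SE 0.16), with a range of -1.06 to -0.86 when single arrays were left out. Nr1d2, on chromosome 14, encodes the related REV-ERB beta. The arrays read 1009.6, 1018, 1343, 1485 and 1187 in mdx, against 1935, 1780.4, 1734, 1766 and 1798 in control. The control arrays were nearly alike, with an SD of 0.06 on the log2 scale, against 0.22 in mdx. On the log2 scale Nr1d2 differed by -0.53 (SE 0.11) as deposited, and 0.04 under scaling to the hybridization controls.

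The Per genes were less clear-cut. Per1, on chromosome 11, encodes a repressor of the CLOCK and ARNTL pair and is also switched on directly by light, in the brain, and by glucocorticoids. Its intensities were 646, 964, 276, 208 and 895 in mdx, against 1781, 742, 500.4, 800.1 and 471 in control. The groups overlapped, and the highest array was 4.64 times the lowest in mdx and 3.78 times in control, more than for any other tested gene of the 10. For Per1 the log2 difference was -0.44 with a SE of 0.37, and it ranged from -0.62 to -0.17 when single arrays were left out, with -0.17 without control replicate 1. Per2, on chromosome 1, encodes the partner repressor, and its probe set was too dim to be tested. Its intensities were 119, 52.2, 39.0, 15.0 and 73.8 in mdx, all below the noise level, against 279.9, 169, 128, 271 and 207 in control, where 1 array was below it. With the deposited scaling the groups did not overlap, and the geometric mean of control was 1.29 times the noise level. That level estimates the spread of the noise and is not a limit of detection. No smallest fold difference is therefore given for Per2. No value of Per2 is given under scaling to the hybridization controls, so these values hold for the deposited scaling only.

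With the deposited scaling, the activators of the loop overlapped between the groups. Arntl, on chromosome 7, encodes the partner of CLOCK and is the gene that the REV-ERB proteins repress. It had intensities of 587, 633, 673, 418 and 510.1 in mdx, against 216, 494, 662, 372 and 639.8 in control. The groups overlapped over most of their range, and control replicate 1, the highest control array for Dbp, Tef, Per1 and Per2, was the lowest for Arntl. The log2 difference was 0.23 (SE 0.21), and was 0.06 without control replicate 1. Clock, on chromosome 5, encodes the other activator and is known to cycle little in most tissues. Clock had intensities of 485, 481, 584, 485 and 536 in mdx, against 389.7, 546, 508, 484 and 578 in control. Clock differed by 0.03 on the log2 scale (SE 0.12), and by -0.04 with quantile normalization.

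The cryptochromes lay between these groups of genes. Cry1, on chromosome 10, encodes the strongest repressor of the loop. Its 1 tested probe set belongs to a class that may match related sequences, and it had intensities of 505, 658, 348, 583 and 692 in mdx, against 688, 741, 777, 1021 and 797 in control. The groups overlapped at a single point, since the highest mdx array, at 692, lay just above the lowest control array, at 688. Cry1 differed by -0.44 on the log2 scale (SE 0.15) as deposited and 0.08 under scaling to the hybridization controls. It stayed among the called probe sets in 3 of the 10 fits that left out 1 array, and not with equal trimmed means, no filter or the replicate block. The other 2 probe sets of Cry1 were below the noise level on all 10 arrays, with no intensity above 82.4. Cry2, on chromosome 2, encodes the other cryptochrome and had intensities of 381, 513, 441, 524 and 633 in mdx, against 695, 546, 610.0, 720.4 and 511 in control. The groups overlapped, with a log2 difference of -0.24 (SE 0.13).

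The scale of the arrays bears on each of these values. The 9 hybridization control probe sets report control RNA added at the hybridization step, not to the muscle RNA. They had a geometric mean of 5935.5 to 7940.1 in mdx and 9762 to 12868 in control. Scaling the arrays to them moved the median log2 difference of all tested probe sets to 0.45, against -0.05 as deposited. On that scale Dbp was at -0.88 and Nr1d1 at -0.38, while Tef, Nr1d2, Cry1 and Per1 were at 0.07, 0.04, 0.08 and 0.06. Cry2 was at 0.26, Arntl at 0.72 and Clock at 0.52. Dbp was then the 1 listed gene called lower, Arntl and Clock were called higher, and Nr1d1, Nr1d2, Tef and Cry1 were not called, beside 1.63% of all tested probe sets lower and 46.1% higher. Relative to the median probe set of that scale, Dbp was at -1.32, Nr1d1 at -0.83, Nr1d2 at -0.40, Per1 at -0.39, Tef at -0.37, Cry1 at -0.37, Cry2 at -0.19, Clock at 0.07 and Arntl at 0.27.

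Because 1 factor per array largely cancels when 2 sets of genes on the same array are set against each other, the arms were compared within each array. The mean log2 level of Dbp, Tef, Nr1d1, Nr1d2 and Per1 minus that of Arntl and Clock was 0.82, 0.95, 0.66, 1.03 and 1.11 in mdx, against 2.68, 1.61, 1.55, 1.97 and 1.34 in control. The groups did not overlap, and control replicate 1 had the widest gap between the arms. The means were 0.91 ± 0.18 in mdx and 1.83 ± 0.53 in control (SD, n = 5 each), a log2 difference of -0.92 (SE 0.25), given with no test. It was -0.83 under scaling to the hybridization controls and -0.70 without control replicate 1. With the deposited scaling the evening arm was at 10.35 ± 0.12 in mdx and 11.13 ± 0.22 in control, a difference of -0.78, and the morning arm at 9.44 ± 0.13 in mdx and 9.30 ± 0.31 in control, a difference of 0.13. Under scaling to the hybridization controls the evening arm differed by -0.22 and the morning arm by 0.62, so which arm holds most of the gap depends on the scaling.

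**Figure D2:**
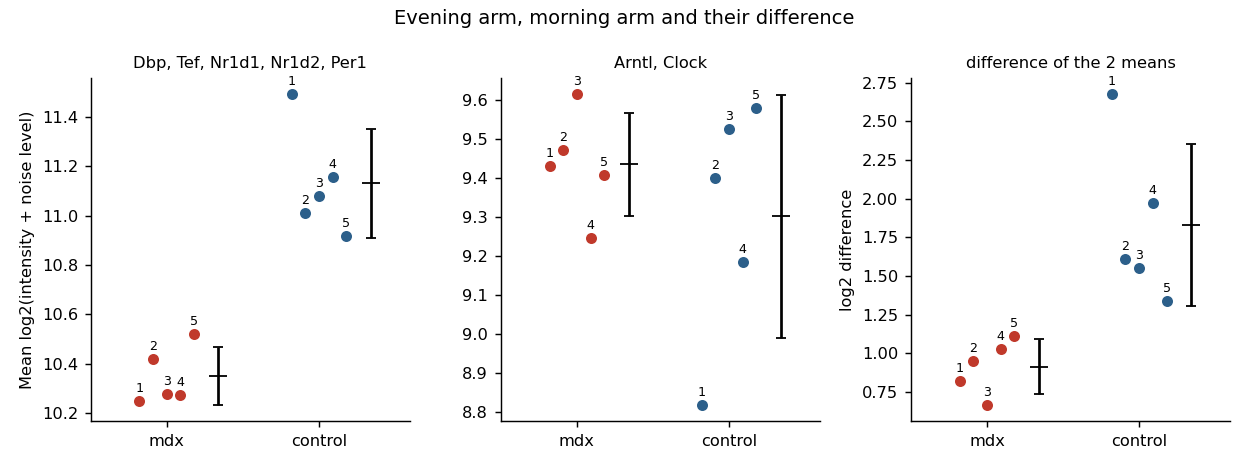
Mean log2(intensity + 156.8) of the evening arm (left), of the morning arm (middle) and their difference (right) on each array, with mdx left of control. Points carry the replicate number, and bars are the mean and SD of 5 arrays. The difference runs from 0.66 to 1.11 in mdx and from 1.34 to 2.68 in control.

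How the clock genes varied between arrays of the same group is a measure that the choice of genes did not use. For each gene, the deviation of an array from its own group mean on the log2 scale was taken, and genes were correlated over the 10 arrays, with an exact permutation test over all 14400 orders of the arrays within groups. Dbp was set against each of the other 9 genes. None of these 9 pairs passed after Benjamini-Hochberg adjustment, and 0 had an unadjusted p below 0.05. With Arntl, Dbp had a Pearson r of -0.47 (exact permutation p = 0.322, adjusted p = 0.725) and a Spearman rho of -0.35 (exact permutation p = 0.415, adjusted p = 0.792). Without control replicates 2 and 5, the arrays farthest from the median of Dbp, r was -0.31. Without control replicate 1 it was -0.21, and without control replicate 3 it was -0.71. Dbp varied less between mdx arrays than between control arrays, so the control arrays weigh more in these correlations.

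All 45 pairs of the 10 genes were then correlated in the same way, a step added after the values had been seen. After adjustment over the 45 pairs, 2 passed, and 5 had an unadjusted p below 0.05. Tef and Per1 varied together within groups, with r = 0.85 (exact permutation p = 0.00125, adjusted p = 0.0297) and rho = 0.85 (exact permutation p = 0.000972, adjusted p = 0.0438). Without control replicates 1 and 3, the arrays farthest from the median of Tef, r was 0.84. Nr1d1 and Per2 went opposite ways, with r = -0.89 (exact permutation p = 0.00132, adjusted p = 0.0297) and rho = -0.85 (exact permutation p = 0.00417, adjusted p = 0.0938). Without control replicate 3 and mdx replicate 1, r was -0.70 (exact permutation p = 0.0625). All mdx values of Per2 were below the noise level. With 1 array left out, r ran from 0.80 to 0.91 for Tef and Per1 and from -0.96 to -0.83 for Nr1d1 and Per2. Whether either pair passed depended on the choice of arrays. Each passed in 2 of the 10 repeats that left out 1 array, and in the other 8 the adjusted p ran from 0.0664 to 0.273 for Tef and Per1 and from 0.0664 to 0.250 for Nr1d1 and Per2 (exact permutation), with fewer orders to draw on. With equal trimmed means the adjusted p of these pairs was 0.0656 and 0.0594 (exact permutation), with r of 0.86 and -0.89.

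The other 3 pairs with an unadjusted p below 0.05 did not pass after adjustment. Arntl and Clock had r = 0.78 and rho = 0.59 (exact permutation p = 0.0263 and 0.103, adjusted p = 0.295 and 0.515). Leaving out control replicate 1 and mdx replicate 4, the arrays farthest from the median of Arntl, brought r to 0.40, so the relation rested on those arrays. Tef and Arntl had r = -0.77 and rho = -0.54 (exact permutation p = 0.0396 and 0.156, adjusted p = 0.356 and 0.590), and r was -0.16 without control replicates 1 and 3. Tef and Per2 had r = 0.71 and rho = 0.75 (exact permutation p = 0.0188 and 0.0253, adjusted p = 0.282 and 0.380), and r was 0.67 without the same 2 arrays.

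**Figure D3:**
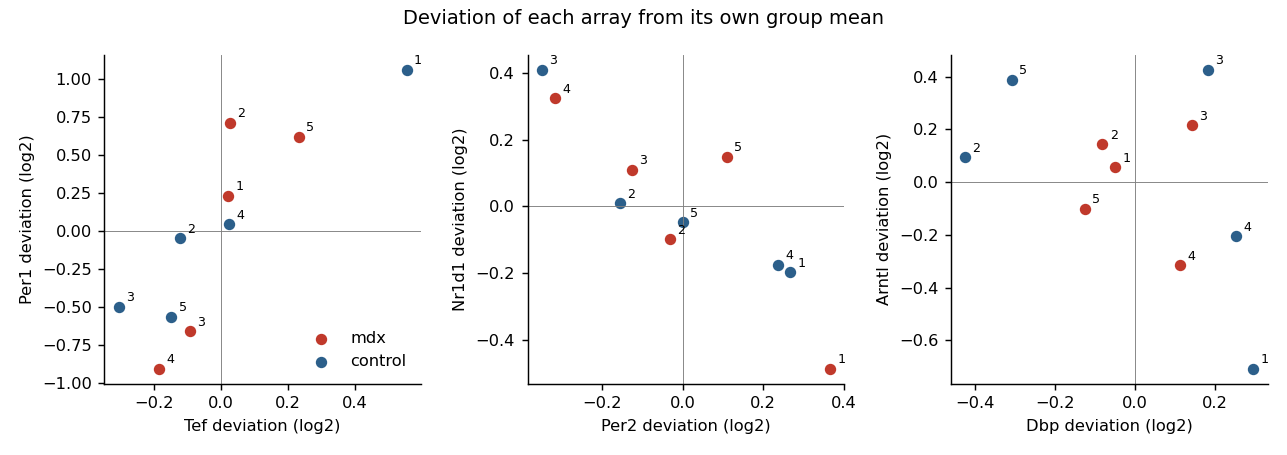
Deviation of each array from its own group mean, in log2 units, for Per1 against Tef, Nr1d1 against Per2 and Arntl against Dbp. Points are arrays, mdx in red and control in blue, with the replicate number. The r over 10 arrays is 0.85, -0.89 and -0.47 from left to right, and control replicate 1 lies at an edge for Tef, Per1 and Arntl.

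**Figure D4:**
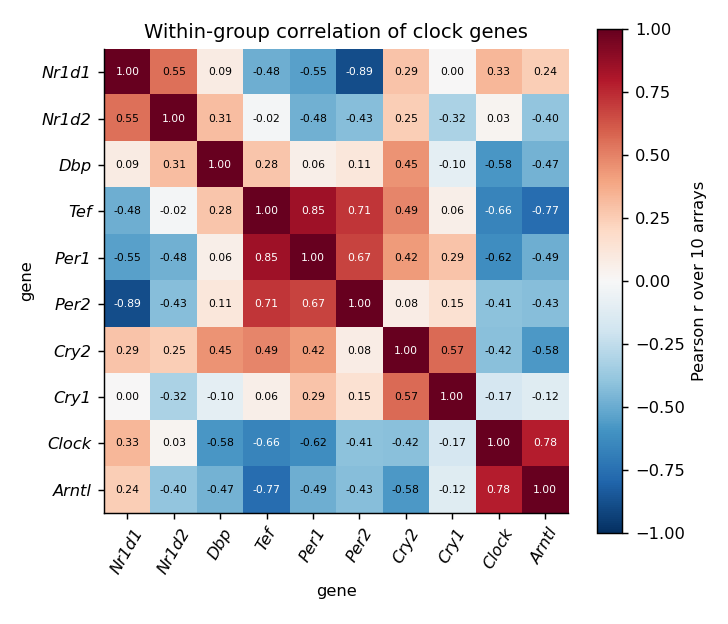
Pearson r of the within-group deviations for each pair of the 10 clock genes over 10 arrays, in colour from -1 (blue) to 1 (red) with the value printed. Tef, Per1 and Per2 form a positive block (0.67 to 0.85), Arntl and Clock another (0.78), and the 6 pairs across them run from -0.77 to -0.41. None of those 6 passed after adjustment, and without control replicate 1 they run from -0.34 to -0.03, with Arntl and Clock at 0.47.

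The probe sets whose deviations were most like those of Dbp, among 6811 tested probe sets of other genes, were of mixed kinds. The highest r over the 10 arrays were those of Arg2 (a mitochondrial arginase) at 0.96, Mia3 (a protein of collagen export) at 0.96, Hes6 at 0.94, Sncg (a synuclein) at 0.94 and Tlr6 (a receptor of innate immunity) at 0.94. Their rho was 0.91 to 0.96. The lowest r were those of Angel2 at -0.93, Socs3 (an inhibitor of cytokine signalling) at -0.92, Ostc at -0.91, Serpinh1 (a collagen chaperone) at -0.91 and a probe set of Csnk1d at -0.90. Csnk1d encodes a casein kinase that phosphorylates PER proteins. The probe set in this ranking was not its brightest, which stands for the gene further below and was not among these extremes. Arg2, Sncg and Tlr6 were near the noise level. These are the extremes of a ranking and were given no test.

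Genes of the clock outside the 10 were mixed. Of 31 listed, 17 had a probe set and 15 were tested, of which 2 were called higher, 2 lower and 11 not, against 15.9% higher, 18.4% lower and 34.3% in either direction of 5767 tested genes, each taken by its brightest probe set. Npas2, which can replace Clock, and Timeless were on the array but too dim to be tested. The median log2 difference was -0.15, beside -0.05 for all tested genes. Earlier results of these data were known when the list was made, so nothing is read from its counts.

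Among the repressors, Bhlhe40 encodes DEC1, which competes for E-boxes. Its intensities were 1911, 1878, 1892, 2236 and 2078 in mdx, against 3335, 2249.7, 2888, 2242 and 2585 in control, with every mdx array below the lowest control array by a small margin. The log2 difference was -0.37 (SE 0.11, limma adjusted p = 0.0209), but 0.22 under scaling to the hybridization controls. With the replicate block Bhlhe40 was not called. Per3 encodes the third PER protein. It had intensities of 1198, 1486, 1219, 1379.8 and 1697 in mdx, against 1889.9, 1854, 1791, 1426 and 1767 in control, and control replicate 4 lay within the mdx range. Its log2 difference of -0.30 (SE 0.11) did not pass (limma adjusted p = 0.0566), and stood at 0.28 under scaling to the hybridization controls. Per3 passed when mdx replicate 5 or control replicate 4 was left out, at -0.36 in both fits, and with quantile normalization, at -0.31.

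Among cofactors, Kat2b, an acetyltransferase that acts with CLOCK, averaged 1873 ± 106 in mdx and 2887 ± 427 in control (SD, n = 5 each), a log2 difference of -0.58 (SE 0.10, limma adjusted p = 0.000706) that stood at 0.02 under scaling to the hybridization controls. Nono, a partner of the PER proteins, averaged 2347 ± 242 in mdx and 1611 ± 109 in control, a log2 difference of 0.50 (SE 0.09, limma adjusted p = 0.000884). Sirt1, a deacetylase that acts on ARNTL and PER2, stayed under the noise level in every control sample and averaged 281 ± 51.2 in mdx. Its geometric mean in mdx was 1.77 times the noise level. Sirt1 passed the filter on low values through the mdx arrays alone, so its place among the 2 genes called higher supports nothing. Sirt1 was also called with no filter. The repressor Hdac3, which acts with REV-ERB, did not pass at -0.56 (SE 0.32, limma adjusted p = 0.200). Hdac3 passed at -0.87 without control replicate 2, and at -0.56 with the replicate block. On mdx replicate 2 and control replicate 2 it was below the noise level, at 70.8 and 82.3.

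The remaining genes were not called with the deposited scaling and all arrays. The casein kinases Csnk1e, Csnk1d and Csnk1a1 were at -0.51, -0.26 and -0.12, with limma adjusted p of 0.0637, 0.109 and 0.437. Csnk1e passed at -0.65 without mdx replicate 3, and with the replicate block. Csnk2a1, a subunit of casein kinase 2, was at 0.18 with its brightest probe set, while 1 of its other probe sets was called lower at -0.65. The RORE activator Rora was at -0.15 and the D-box repressor Nfil3 at 0.19. The ubiquitin ligase genes Btrc and Fbxw11 were at -0.21 and 0.09 and the histone methylation cofactor Wdr5 at -0.08, with limma adjusted p of 0.537, 0.681 and 0.913. The other tested probe sets of Csnk1d, Csnk1a1, Nfil3 and Btrc had the opposite sign, at 0.14, 0.03, -0.30 and 0.31, and were not called. That of Fbxw11 kept its sign, at 0.03. Under scaling to the hybridization controls, every gene of this paragraph was above 0 by its brightest probe set, from 0.02 for Csnk1e to 0.76 for Nfil3.

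**Figure D5:**
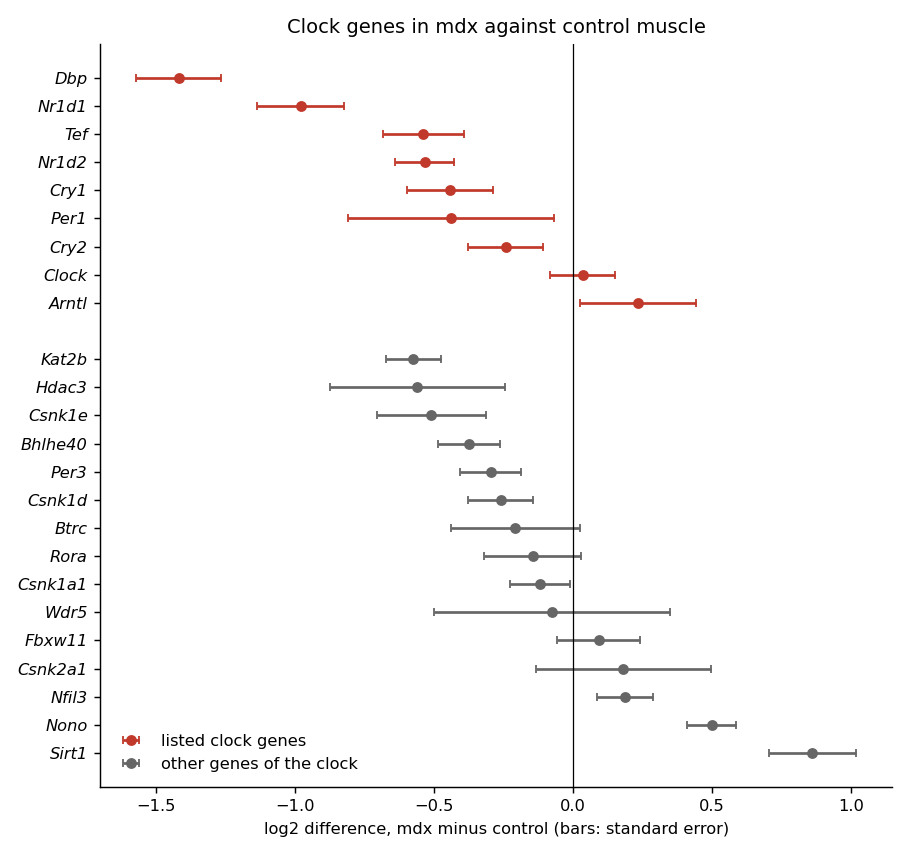
Log2 difference, mdx minus control, for the 9 tested probe sets of the listed clock genes (top, red) and for 15 other genes of the clock (bottom, grey). Points are the fitted differences with the deposited scaling and bars their standard errors. They run from -1.42 for Dbp to 0.23 for Arntl at the top and from -0.58 for Kat2b to 0.86 for Sirt1 at the bottom. Scaling to the hybridization controls turns the sign of Tef, Nr1d2, Cry1, Per1, Cry2, Kat2b and Bhlhe40, among others.

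Genes known to be under clock control in muscle or across tissues were mostly lower with the deposited scaling. Of 24 listed, 16 had a probe set and 15 were tested, of which 9 were called lower, 2 higher and 4 not, against 18.4% lower and 15.9% higher of all genes. Their median log2 difference was -0.67, beside -0.05 for all genes. Since earlier results of these data were known when the list was made, nothing is read from these counts. Many of these genes are also muscle or metabolic genes, and the myofibre markers, at a median of -0.56, moved with them. The part of that in the count was not tested. Under scaling to the hybridization controls 2 were called lower and 3 higher, against 1.42% lower and 47.2% higher of all genes.

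By the smallest p, the genes of this list were Hk2, Cdkn1a, Klf9 and Alas1. Hk2, the hexokinase of muscle, had intensities of 2364, 1994, 2642, 2183 and 2107 in mdx, against 6858, 9604, 7432, 7446 and 8418 in control, a log2 difference of -1.74 (SE 0.10, limma adjusted p = 1.44e-07). It was the lowest of the list, with no overlap between the groups. Cdkn1a, an inhibitor of the cell cycle, was higher on every mdx array, at 1589 ± 224 in mdx and 480.5 ± 117 in control (SD, n = 5 each), a log2 difference of 1.46 (SE 0.14, limma adjusted p = 6.23e-06). Klf9, a transcription factor that glucocorticoids induce, averaged 3175 ± 237 in mdx and 5786 ± 620 in control, a log2 difference of -0.83 (SE 0.09, limma adjusted p = 1.52e-05), while its other tested probe set was not called, at -0.38. Alas1, the first enzyme of haem synthesis, averaged 4025 ± 418 in mdx and 6527 ± 431 in control, a log2 difference of -0.68 (SE 0.08, limma adjusted p = 5.11e-05).

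Usp2, a deubiquitinase gene that cycles in many tissues, lay outside the rule for named genes and was picked after its values were seen. It had intensities of 2767, 4489, 3226, 2982 and 3875 in mdx, against 7321, 6317, 8668, 7391 and 5781 in control. The groups did not overlap. The log2 difference was -1.01 with its brightest probe set and -1.26 with the other, and limma called both (adjusted p = 0.000144 and 4.00e-07). Under scaling to the hybridization controls the brightest was at -0.39 and not called, and Klf9 and Alas1 were at -0.21 and -0.06 and not called either.

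Glucocorticoid hormones set the phase of clocks outside the brain and induce Per1, so genes that respond to them were listed too. Of 22 listed, 18 had a probe set and 16 were tested, of which 4 were called higher, 4 lower and 8 not, against 15.9% higher and 18.4% lower of all genes. The median log2 difference was -0.08, beside -0.05 for all genes. Under scaling to the hybridization controls 2 were called lower and 8 higher, against 1.42% and 47.2% of all genes. This list too was made with earlier results of these data known, so nothing is read from its counts. The tested genes shared 3 members, Cdkn1a, Klf9 and Pdk4, with the list before. Pdk4, a kinase that shuts off pyruvate oxidation, had intensities of 4621, 5497, 5699.5, 6209 and 4693 in mdx, against 9882, 16223, 17324.5, 9481 and 16985 in control, a log2 difference of -1.32 (SE 0.18, limma adjusted p = 0.000124). Mt2, a metallothionein, had intensities of 22038.5, 21699.9, 8405, 9185 and 26752 in mdx, against 3532, 4105, 4042, 3691 and 3963.5 in control, a log2 difference of 1.99 (SE 0.29, limma adjusted p = 0.000208). The mdx arrays of Mt2 fell into a high and a low set, all above control.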

How the data were processed

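RNA of gastrocnemius muscle was measured on an Affymetrix mouse array in 5 mdx and 5 control samples, grouped by the labels. What the authors deposited is 1 linear intensity per probe set and array, some below 0. The software, background correction and scaling that the authors used are not given in the sources used here. The members and the gene lists were chosen with earlier results of these data known. Control probe sets (66 of 12488) were left out, and 10833 of the other 12422 probe sets named 1 gene, 396 several and 1193 none.

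The noise level, 156.8, was estimated from the 27483 values below 0. Values below 0 were set to 0, the noise level was added as a pseudocount and log2 was taken, so fold changes of dim genes are understated. Probe sets above 134.3 (the 40th percentile) on at least 5 of 10 arrays were tested, 7612 in all. Differences were fitted with limma 3.58.1 in R 4.3.3 (lmFit, eBayes with trend), with Benjamini-Hochberg adjustment over all of them and a threshold of 0.05. A gene was represented by its brightest probe set. Within-group correlations used Python 3.11.15 with scipy 1.17.1, and the smallest p that their permutations can give is 6.94e-05. Both were tested on simulated data. The number of arrays limits the precision.

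Named are all probe sets of the 10 genes, every tested gene of the other clock list, the 4 genes of smallest p in the output and the glucocorticoid list, and the 5 probe sets with the highest and the 5 with the lowest r with Dbp. Alternatives were equal trimmed means, quantile normalization, the pseudocount doubled or halved, no filter, a replicate block, each array left out, and, added after seeing the data, scaling to the hybridization controls and Per2 in the arm. Samples of the same replicate number did not deviate together (correlations of -0.134 to 0.052), so the numbers were not taken as pairs.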

Additional observations from a re-analysis of the deposited data

Results flagged for a closer look

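Of 64 sets of 5 arrays checked for a sample far from the others, 2 were picked out, while chance alone picks about 1 in 20. For Per3, control replicate 4 had an intensity of 1426, below the other control arrays, and its gap to the nearest was 0.759 of the group's range (critical value 0.71). For Hdac3, control replicate 2 had 82.3, below the noise level, and its gap was 0.892 of the range.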

How the results depend on the processing

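The setting that changed the most was scaling to the hybridization controls. It turned Bhlhe40 to 0.22, Kat2b to 0.022, Csnk1a1 to 0.50, Cry1 to 0.076, Nr1d2 to 0.043 and Tef to 0.074 (log2, mdx minus control), and left 3 of the listed clock genes called (Dbp lower, Arntl and Clock higher) and 5 clock-controlled output genes, against 5 and 11 with the deposited scaling. Of all probe sets 1.63% were called lower and 46.1% higher under it. The other Cry1 probe sets, at noise level, gave 0.19 and 0.085. Tef against Per1 had r = 0.86, 0.83 and 0.82 with equal trimmed means, quantile normalization and scaling to the hybridization controls (exact permutation adjusted p of 0.0656, 0.0781 and 0.150), and 0.80 to 0.91 with 1 array left out. Nr1d1 against Per2 had r = -0.89, -0.90 and -0.73 under the same settings (exact permutation adjusted p of 0.0594, 0.0594 and 0.355), and -0.96 to -0.83 with 1 array left out. The cause was not tested. Cry1 was called in 3 of the 10 fits that left out 1 array, and was not with equal trimmed means, no filter, the replicate block or scaling to the hybridization controls. With the replicate block, 2212 probe sets were called, against 2520 without it, and of the listed clock genes 4, against 5. The difference between the arms ran from -1.04 (without control replicate 5) to -0.70 (without control replicate 1).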
